A study of Homo sapiens with 18 samples.

Results

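The 9 enzymes examined here carry squalene to cholesterol: SQLE, LSS, CYP51A1, TM7SF2, SC4MOL (now MSMO1), NSDHL, EBP, SC5DL (now SC5D) and DHCR7. They were taken by gene name from the scanner files, which hold 30815 distinct gene names and where 16 of 41000 distinct probes carried 1 of these 9 names, and 15 of the 16 passed the filter on dim probes that kept 28665 probes in all. The enzymes were selected on the treated-against-control values of these same arrays, so those values are given as a description and nothing is read from them. The cells were A549, an established line of human lung adenocarcinoma that is used as a model of the alveolar epithelium, and all the data come from this 1 line. Treated cells received Ludox colloidal silica NPs (0.02 mg/mL) during a serum-free step of 2 h and then recovered in medium with serum. There were 6 groups of 3 biological replicates, lettered A, B and C: SM30 NPs (9 nm) after 3 h of recovery, AS30 NPs (18 nm) after 3 h, AS30 NPs after 22 h, and for each of these a control group that went through the same serum-free step without particles. No SM30 group at 22 h was analysed here. Cells were measured in bulk, so a change in RNA per cell and a change in the mix of cells cannot be told apart.

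Cholesterol synthesis after squalene starts with an oxygen-dependent epoxidation and a ring closure, and then removes methyl groups, moves a double bond and reduces the sterol. SREBP2, a transcription factor held in the endoplasmic reticulum while sterols are plentiful, is released when membrane cholesterol falls and switches on nearly all genes of the pathway, together with those of cholesterol uptake. Alveolar type II cells, which A549 cells partly resemble, handle large amounts of lipid because they make surfactant.

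SREBP2 binds next to other factors, among them NF-Y, which recognises the CCAAT box, so the stretch before the start of transcription was read for 8 of the 9 genes in a RefSeq table of promoters (build GRCh38.p14, 250 bases before to 50 after each start, 10 entries because DHCR7 and SC5DL have 2 starts each). SQLE was not in that table. Both strands were searched for the sterol element TCACNCCAC, for CCAAT, for GGGCGG and for CACGTG. None of the 8 genes held TCACNCCAC in this window, a motif present in 1.13% of 35116 promoters, and this says only that these letters are not in this window. CCAAT was found in 7 of the 8, against 34.6% of all promoters, GGGCGG in 7, against 45.0%, and CACGTG in 2, against 7.26%. A gene was counted if any of its starts matched, whereas the shares are over single promoters. Of the 2 DHCR7 starts, 1 held neither CCAAT nor GGGCGG. The 200 bases before the start are shown for the genes with the highest and the lowest mean log2 ratio 22 h after AS30 (TM7SF2 and SC4MOL, and NSDHL) and for CYP51A1, the gene without a CCAAT match. Capitals mark CCAAT or its reverse complement ATTGG, and each sequence runs 5' to 3' on the strand of the gene.
TM7SF2 (chr11:65111672-65111871, plus strand): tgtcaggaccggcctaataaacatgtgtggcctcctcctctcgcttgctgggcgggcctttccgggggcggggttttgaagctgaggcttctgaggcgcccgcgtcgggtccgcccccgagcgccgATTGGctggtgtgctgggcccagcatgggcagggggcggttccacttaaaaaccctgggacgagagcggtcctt
SC4MOL (chr4:165327469-165327668, plus strand): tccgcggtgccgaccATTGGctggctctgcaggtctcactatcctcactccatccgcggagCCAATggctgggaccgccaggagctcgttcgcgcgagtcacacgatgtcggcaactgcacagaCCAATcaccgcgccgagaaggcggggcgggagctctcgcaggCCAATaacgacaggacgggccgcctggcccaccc
NSDHL (chrX:152830863-152831062, plus strand): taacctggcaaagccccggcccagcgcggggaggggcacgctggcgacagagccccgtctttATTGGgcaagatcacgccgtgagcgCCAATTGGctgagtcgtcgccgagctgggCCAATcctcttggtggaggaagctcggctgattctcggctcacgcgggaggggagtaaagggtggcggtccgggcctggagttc
CYP51A1 (chr7:92134478-92134677, minus strand): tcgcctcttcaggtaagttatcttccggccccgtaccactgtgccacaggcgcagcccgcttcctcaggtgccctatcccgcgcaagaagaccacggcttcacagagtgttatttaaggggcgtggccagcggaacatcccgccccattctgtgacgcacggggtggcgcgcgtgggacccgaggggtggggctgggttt
The SC4MOL stretch holds 4 matches spread over its length and the TM7SF2 stretch holds 1, while their log2 ratios at 22 h were the 2 highest. The NSDHL stretch also holds 4, of which a pair overlaps within ccaattgg, and NSDHL had the lowest mean ratio. The genes were picked for their responses or their lack of a match, so no relation is read from these counts. A match is a string of letters and was not tested for binding.

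As a check of the arrays, all 5 epithelial markers (KRT8, KRT18, KRT19, EPCAM, CDH1) were well above background on all 18 arrays, as were 2 of 3 leukocyte markers (CD14 and CD3E, but PTPRC on none), 1 of 3 fibroblast markers (COL1A1, but COL3A1 on none) and 0 of 3 endothelial markers (PECAM1 on none). Of the alveolar type II markers, 3 of 5 were on all 18 and none of the 5 was absent from every array. Marker signals were summed on the linear scale and the sum was then put in log2, so the brightest markers weigh most. For epithelial markers it lay between 18.02 and 18.40 on the AS30 arrays at 22 h, and between 17.93 and 18.16 on their controls. In this comparison KRT19 was called higher (log2 ratio 1.21). The other epithelial markers, not called, had -1.46 (CDH1), -0.61 (EPCAM), -0.09 (KRT18) and -0.04 (KRT8). Of the type II markers SFTPA1 was called lower (-0.87), while ABCA3 (0.62), SFTPC (-0.25) and SFTPB (-0.42) were not called. SFTPB was well above background on only 1 of the 18 arrays, so the size of its ratio is uncertain. LAMP3, well above background on 6 of the 18, had no ratio in this comparison. Summed leukocyte markers lay between 8.71 and 8.83 on these treated arrays and between 8.57 and 9.08 on the controls, endothelial markers between 4.85 and 5.31 against 4.51 and 4.90, fibroblast markers between 6.23 and 7.18 against 6.87 and 7.78, and type II markers between 10.75 and 11.49 against 10.61 and 10.83. Between 56.9% and 67.0% of spots were well above background on the treated arrays at 22 h and between 51.9% and 58.4% on their controls, and the lowest treated value was that of replicate B. The part of these values in the results was not tested.

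Cells at 22 h after AS30 had more transcript of every one of the 9 enzymes than their controls. The mean log2 ratio over the 3 pairs of same-letter arrays ran from 0.87 for NSDHL to 2.29 for TM7SF2, with a median of 1.45, whereas the median over all probes was -0.005. At 3 h, the means lay between -0.07 and 0.52 after SM30 and between -0.19 and 0.52 after AS30. In the fit across all probes (limma, Benjamini-Hochberg adjusted p below 0.05), 9 of 9 enzymes were called higher at 22 h, where 2.54% of all probes were called higher, and 0 of 9 were called at 3 h after AS30 or after SM30, where 2.52% and 7.49% of probes were called. With no adjustment, 0 of 9 were also under 0.05 in either 3 h comparison, against 25.1% of all probes after SM30 and 24.4% after AS30, and 2 of the 6 further probes of these genes, both of LSS, were under 0.05 after SM30. Because the enzymes were chosen by these contrasts, the counts describe the choice. The call count at 22 h fell to 0 without pair A, to 3 without pair C and to 5 without SM30 pair B, which lends only its spread. These leave-out counts stand without the number of all probes called in the same fits, so nothing is read from them. With the slide as a fixed block the count was 3, where 325 of 28223 probes were called in either direction. In the main fit 1008 of 28155 probes were. The direction was the same for all 9 in each of these fits.

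**Figure D1:**
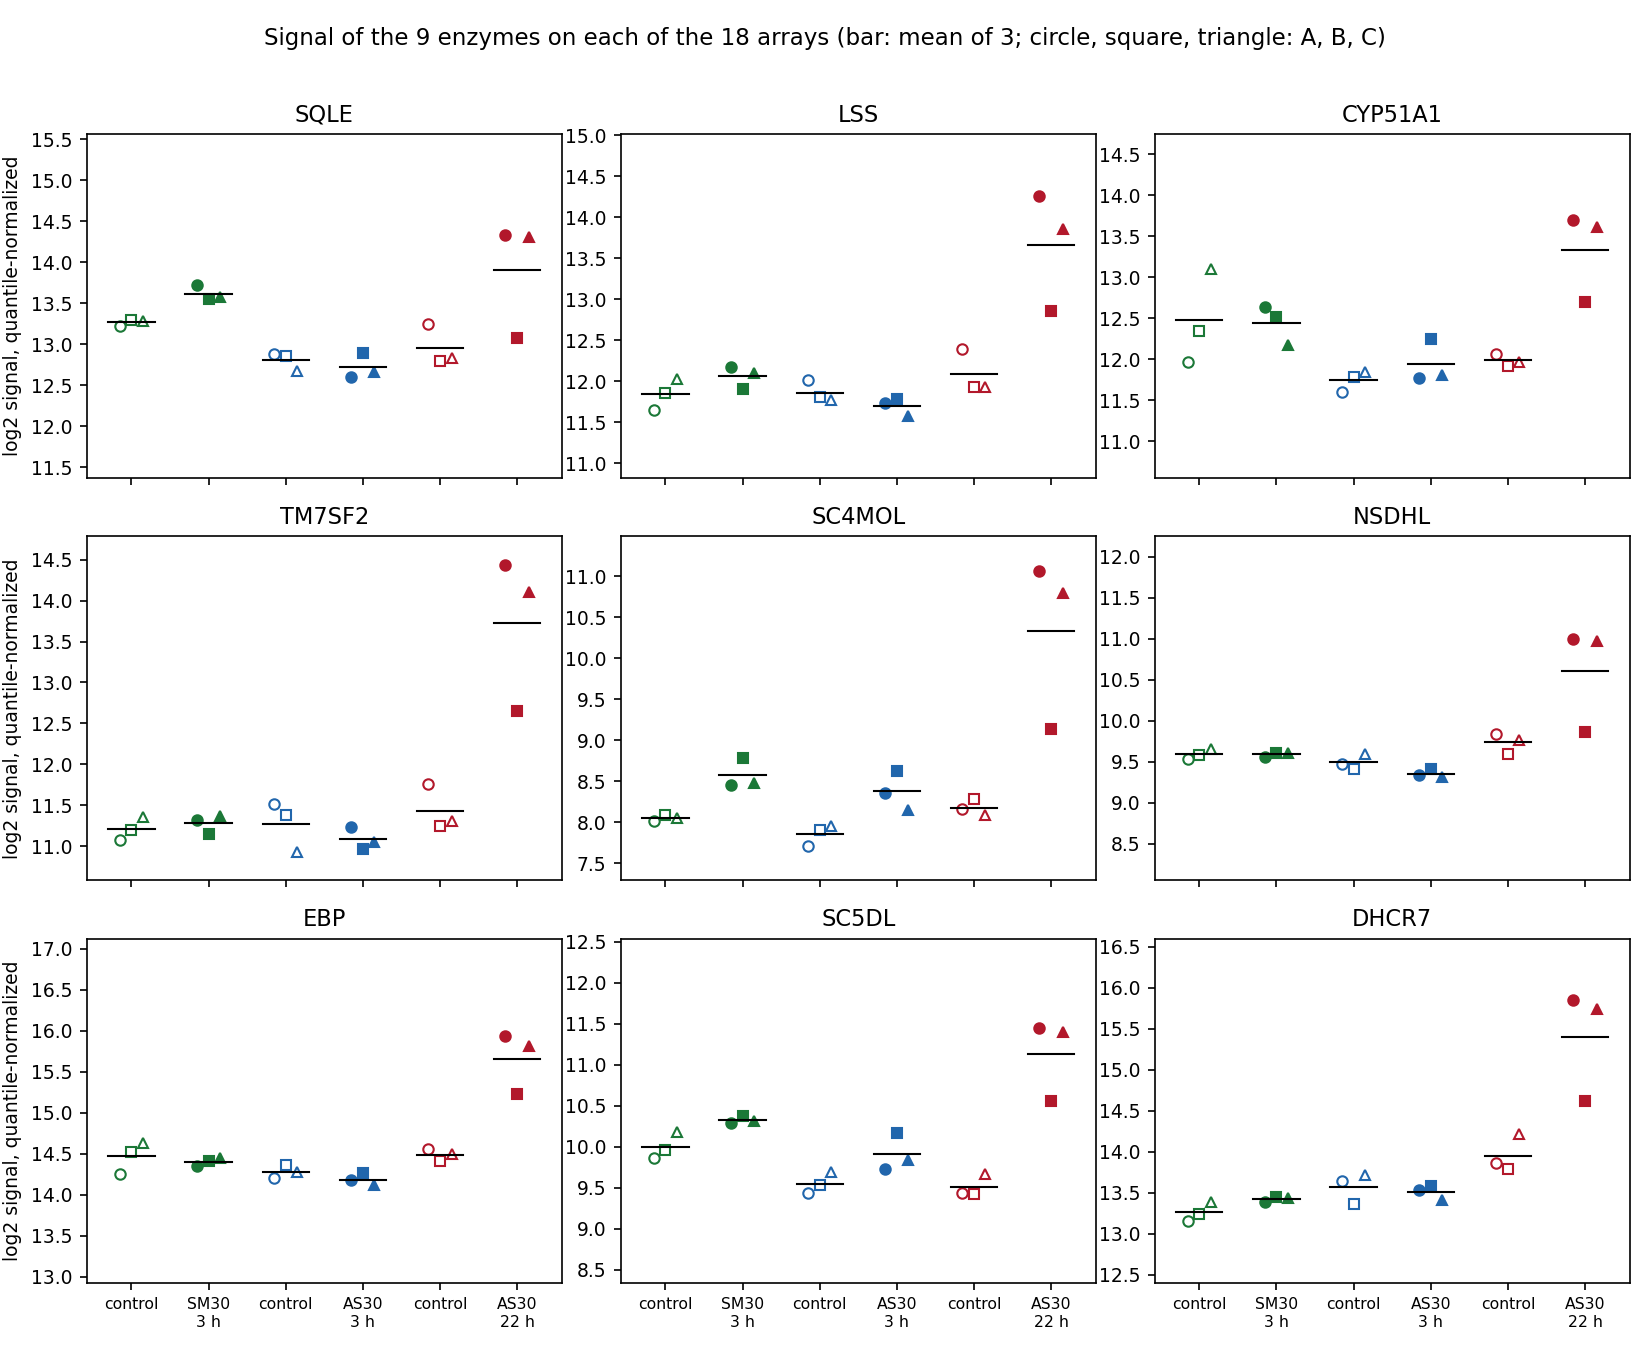
Quantile-normalized log2 signal (vertical axis, every panel spanning the same number of log2 units) of 1 probe for each enzyme on the 18 arrays, with open symbols for controls, filled symbols for treated cells, shapes for replicates A, B and C, and a bar for the mean of 3. Replicates A and C at 22 h after AS30 stand highest in every panel, and replicate B lies lower, above all controls of its set for every enzyme but SQLE.

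SQLE, the squalene epoxidase that performs the first oxygenation of the pathway, had log2 signals of 14.33, 13.07 and 14.30 on the AS30 arrays A, B and C at 22 h and of 13.25, 12.79 and 12.83 on their controls. Treated replicate B was below control A, so the groups overlapped, and SQLE was the 1 enzyme of the 9 for which they did. The 3 log2 ratios were 1.08, 0.28 and 1.47, with a mean of 0.95 (SE 0.20). Each SE given here and below comes from the limma fit, which pools the spread of all 9 log2 ratios of a probe. It is therefore not the spread of the 3 ratios beside it, which at 22 h differed more between pairs.

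LSS, lanosterol synthase, closes the rings of the epoxide. The probe used for the gene read 14.26, 12.85 and 13.86 against 12.39, 11.93 and 11.93 on the controls, with log2 ratios of 1.87, 0.92 and 1.94. All treated values stood above all controls. The 3 other LSS probes gave mean log2 ratios of 1.78, 2.16 and 2.20 at 22 h, against 1.57 (SE 0.20) for the first. The probe with 2.20 (A_23_P211252) was well above background on only 1 of the 3 control arrays, so the size of its ratio is uncertain. The probe with 2.16 (A_24_P162211) was not well above background on any of the 3 control arrays and was on all 3 treated arrays, so for this probe the transcript was at least 2.38-fold higher.

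CYP51A1, the cytochrome P450 that demethylates lanosterol, read 13.70, 12.69 and 13.62 against 12.07, 11.92 and 11.97. Its log2 ratios were 1.63, 0.77 and 1.65 (mean 1.35, SE 0.29), and a second probe had a mean of 1.54. The groups did not overlap at 22 h.

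TM7SF2, the sterol reductase that follows CYP51A1, read 14.43, 12.65 and 14.10 against 11.76, 11.25 and 11.30 on the controls. The log2 ratios were 2.67, 1.40 and 2.79. Their mean of 2.29 (SE 0.25) is a 4.89-fold difference. That probe lies at chr11:64640165-64640224 in build hg18, per the scanner files, and the second TM7SF2 probe, at chr11:64637567-64637626, had a mean log2 ratio of 2.12 (SE 0.25).

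SC4MOL, the oxidase that starts removal of the methyl groups lost after CYP51A1 acts, read 11.06, 9.13 and 10.79 against 8.16, 8.28 and 8.09. Its log2 ratios of 2.90, 0.85 and 2.71 (mean 2.15, SE 0.34) were the most spread of the 9. The dehydrogenase NSDHL works on the product of SC4MOL, and it read 10.99, 9.86 and 10.97 against 9.84, 9.60 and 9.77. For NSDHL the ratios were 1.15, 0.26 and 1.2 (mean 0.87, SE 0.18), and treated replicate B (9.86) stood just above control A (9.84).

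EBP, the isomerase that moves the ring double bond, read 15.93, 15.22 and 15.81 against 14.55, 14.40 and 14.50, with log2 ratios of 1.38, 0.82 and 1.31 (mean 1.17, SE 0.13). SC5DL, the desaturase that acts on the product of EBP, read 11.45, 10.55 and 11.40 against 9.44, 9.43 and 9.67, with ratios of 2.02, 1.13 and 1.73 (mean 1.62, SE 0.18). DHCR7, the reductase whose product in one branch is cholesterol itself, read 15.85, 14.62 and 15.74 against 13.86, 13.79 and 14.21, with ratios of 1.99, 0.83 and 1.53 (mean 1.45, SE 0.20). For each of these last 3 enzymes all treated arrays lay above all controls. A second SC5DL probe had a mean log2 ratio of 1.55. Another SC5DL probe, which the filter removed, was well above background on treated replicates A and C at 22 h and on no control array of that set, and no ratio is given for it.

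**Figure D2:**
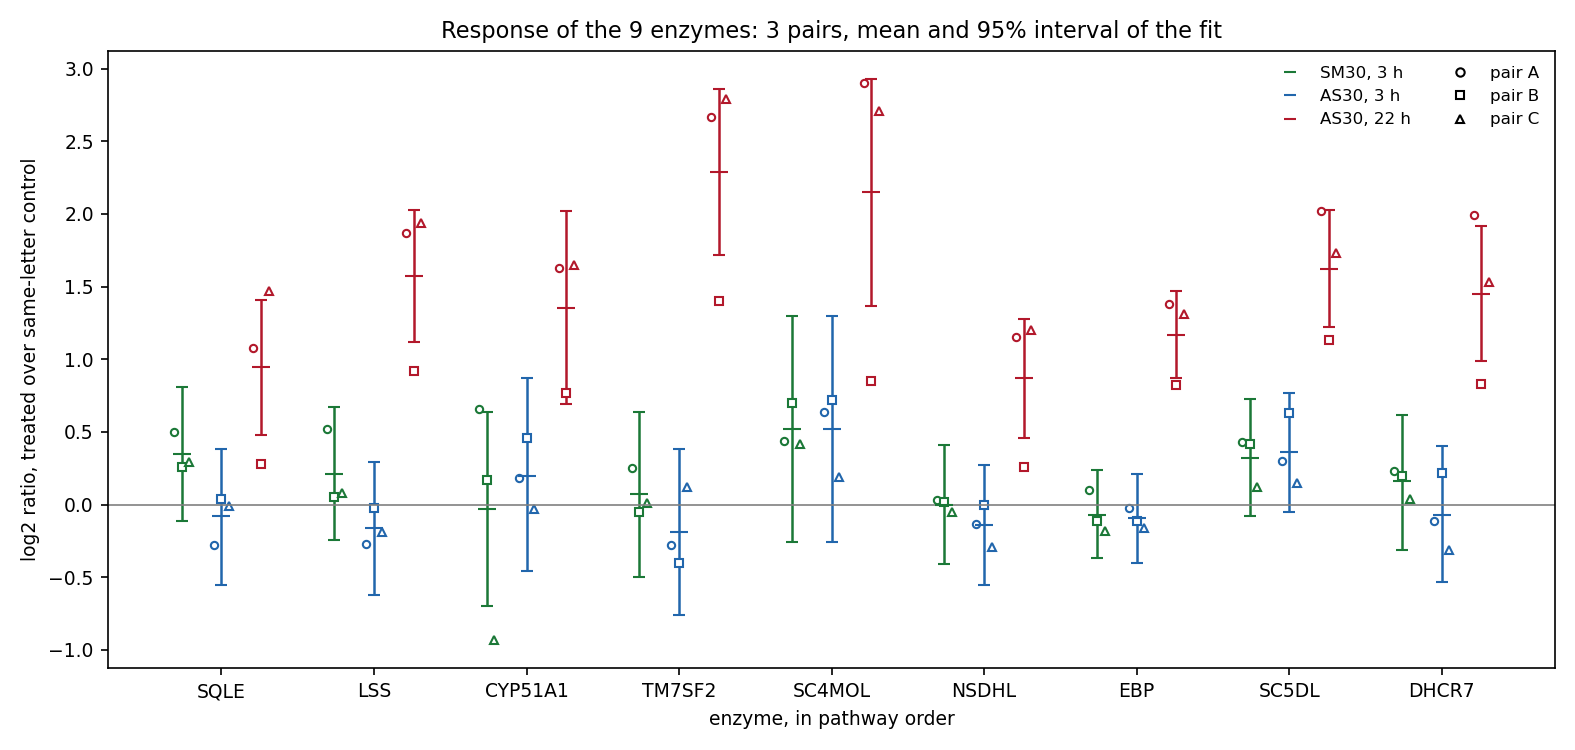
Log2 ratio of treated over same-letter control (vertical axis) for the 9 enzymes in pathway order, with symbols for pairs A, B and C, a bar for the mean and whiskers for the 95% interval of the limma fit. The intervals of an enzyme share 1 estimate of the spread, so they have the same width in the 3 treatments. At 22 h after AS30 the means run from 0.87 to 2.29 and pair B is the lowest for all 9, while at 3 h no mean exceeds 0.52.

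Treated and control arrays did not overlap, with all treated higher, for 8 of the 9 enzymes at 22 h after AS30, and the same held for 12.8% of all probes measured on these 6 arrays. At 3 h after SM30 it held for 4 (SQLE, SC4MOL, SC5DL and DHCR7), against 19.2% of probes. At 3 h after AS30 it held for SC4MOL and SC5DL, against 13.2%, and NSDHL was lower on all 3 treated arrays, although the nearest treated and control values were both 9.41 at 2 decimals, and 10.6% of probes were lower in this way. These counts use the contrasts the enzymes were chosen on, so nothing is read from them.

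The 3 pairs at 22 h differed in size. Medians over the 9 enzymes were 1.87 in pair A, 0.83 in pair B and 1.65 in pair C, and pair B was the lowest of the 3 for 9 of 9 enzymes. Among the 633 probes called higher in this comparison that had all 3 ratios, pair B was the lowest for 65.4%, with medians of 1.11, 0.68 and 0.89 in pairs A, B and C. Over all probes the root mean square log2 ratio of pair B (0.563) lay between those of pair C (0.543) and pair A (0.732). The gap between pair B and the mean of pairs A and C ran from 0.53 log2 units for EBP to 1.95 for SC4MOL. Without pair B the count of enzymes called at 22 h was again 9. The number of all probes called in that fit is not given, so nothing is read from this count.

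The order of the responses at 22 h was TM7SF2, SC4MOL, SC5DL, LSS, DHCR7, CYP51A1, EBP, SQLE and NSDHL. No enzyme was above its next neighbour in all 3 pairs, since each of the 8 neighbouring steps held in 2 of 3, so neighbours were not separated beyond the spread between pairs. At the ends of the order, TM7SF2 exceeded NSDHL by 1.52, 1.14 and 1.59 in pairs A, B and C. The order did not follow the order of the reactions, since SQLE and NSDHL, both low, act at the start and in the middle.

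All 3 treated arrays at 22 h shared a slide with control C, while controls A and B lay on slides with AS30 arrays or controls of the 3 h set. Measured against control C alone, within that slide, the 9 enzymes were higher by 0.84 (NSDHL) to 2.42 (TM7SF2) on the log2 scale, with a median of 1.37. Treated arrays and controls of AS30 at 3 h lay on different slides, so slide and treatment cannot be told apart there by a within-slide value. For SM30, replicate A shared a slide with the 3 controls, and against these the enzymes differed by -0.12 (EBP) to 0.45 (SQLE), with a median of 0.16.

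At 3 h the enzymes stood close to their controls after both particles. After SM30, 5 of 9 enzymes had all 3 log2 ratios above 0. SC4MOL gave 0.44, 0.70 and 0.42 (mean 0.52, 95% interval -0.26 to 1.30), SQLE 0.50, 0.26 and 0.29 (mean 0.35, -0.11 to 0.81), and SC5DL 0.43, 0.42 and 0.12 (mean 0.32, -0.08 to 0.73). These intervals, and the calls at 3 h, use a spread shared with the more variable pairs at 22 h. Their width is therefore not that of the 3 ratios beside them. After AS30, only SC4MOL (0.64, 0.72 and 0.19) and SC5DL (0.30, 0.63 and 0.15) had 3 ratios above 0, while LSS, NSDHL and EBP had 3 below 0. CYP51A1 was the least even of the 9 after SM30, with ratios of 0.66, 0.17 and -0.93, and its second probe gave 0.48, 0.49 and 0.38. For LSS, the 3 further probes gave means of 0.96, 0.68 and 0.37 after SM30, against 0.21 for the probe used for the gene. After AS30 the further probe that was well above background on all arrays (A_24_P110799) gave 0.09, against -0.16, and no value is given for the others, which were well above background on 1 (A_23_P211252) and 0 (A_24_P162211) of the 3 control arrays.

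The SM30 and AS30 responses at 3 h were compared directly, on the same arrays that give the single responses. The difference (SM30 minus AS30) ran from -0.23 (95% interval -1.18 to 0.71) for CYP51A1 to 0.43 (-0.22 to 1.09) for SQLE. The second CYP51A1 probe had the other sign, at 0.19 (-0.57 to 0.95). None of the 9 was called by limma, where 0.0140% of all probes were, and at an unadjusted p under 0.05 the count was also 0, against 14.6% of all probes. The intervals were wide: that of SC4MOL ran from -1.1 to 1.1.

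The AS30 responses at 22 h and 3 h differed by 1.01 (95% interval 0.44 to 1.59) for NSDHL to 2.48 (1.67 to 3.29) for TM7SF2, with SC4MOL at 1.63 (0.53 to 2.74), LSS at 1.74 (1.09 to 2.39) and DHCR7 at 1.52 (0.86 to 2.17). This difference contains the 22 h response the enzymes were chosen on. None of the 9 was called by limma after adjustment over all probes, where 0.0285% were called, though 9 of 9 had an unadjusted p under 0.05, as did 16.9% of all probes. An F-test over the 3 classes called 0 of 9 enzymes, and 0.0855% of probes, and the count was 4 without AS30 pair B at 22 h and 2 without AS30 pair C at 3 h. For these 2 leave-out F-tests the number of all probes called is not given, so nothing is read from their counts. The count called between 22 h and 3 h was 7 without AS30 pair B at 22 h and 9 when ratios were taken over the mean of the 3 controls, which leaves out the spread of the controls. In those 2 fits of the difference, 98 of 28023 and 5962 of 28176 probes were called, in that order.

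The control groups were also compared with each other. Each control array is the denominator of a ratio the enzymes were chosen on, so these differences are not independent of the choice. Between the AS30 controls at 22 h and at 3 h, log2 differences (22 h minus 3 h) ran from -0.04 (95% interval -0.47 to 0.39) for SC5DL to 0.38 (-0.14 to 0.90) for DHCR7. In the limma fit of 18 arrays as 6 groups, 0 of 9 were called (adjusted p from 0.494 to 0.957) and 1.30% of probes were, with 0 of 9 under 0.05 unadjusted against 14.9% of all probes. DHCR7 controls read 13.64, 13.36 and 13.72 at 3 h and 13.86, 13.79 and 14.21 at 22 h, with no overlap, and its interval still included 0. Between the SM30 and AS30 controls at 3 h, which lay on different slides and were scanned on different days, 0 of 9 enzymes were called and 26.8% of all probes were. There CYP51A1 had the largest difference, 0.73 higher in the SM30 controls (95% interval 0.13 to 1.33, limma adjusted p = 0.0668), and 2 of 9 (CYP51A1 and SC5DL) were under 0.05 unadjusted, against 39.1% of all probes. CYP51A1 was called in 3 of 16 alternatives (75th-percentile scaling, slide as a random block, and without SM30 control A). The SM30 controls of the probe used spread from 11.97 to 13.10, and those of its second probe from 9.75 to 9.88. For that second probe, well above background on all 18 arrays, the difference was 0.33 (95% interval -0.24 to 0.9, limma adjusted p = 0.39). For LSS the probe used for the gene had -0.02 and another probe well above background on all 18 arrays (A_24_P110799) had -0.62 (95% interval -1.24 to 0, adjusted p = 0.127 in the limma fit).

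**Figure D3:**
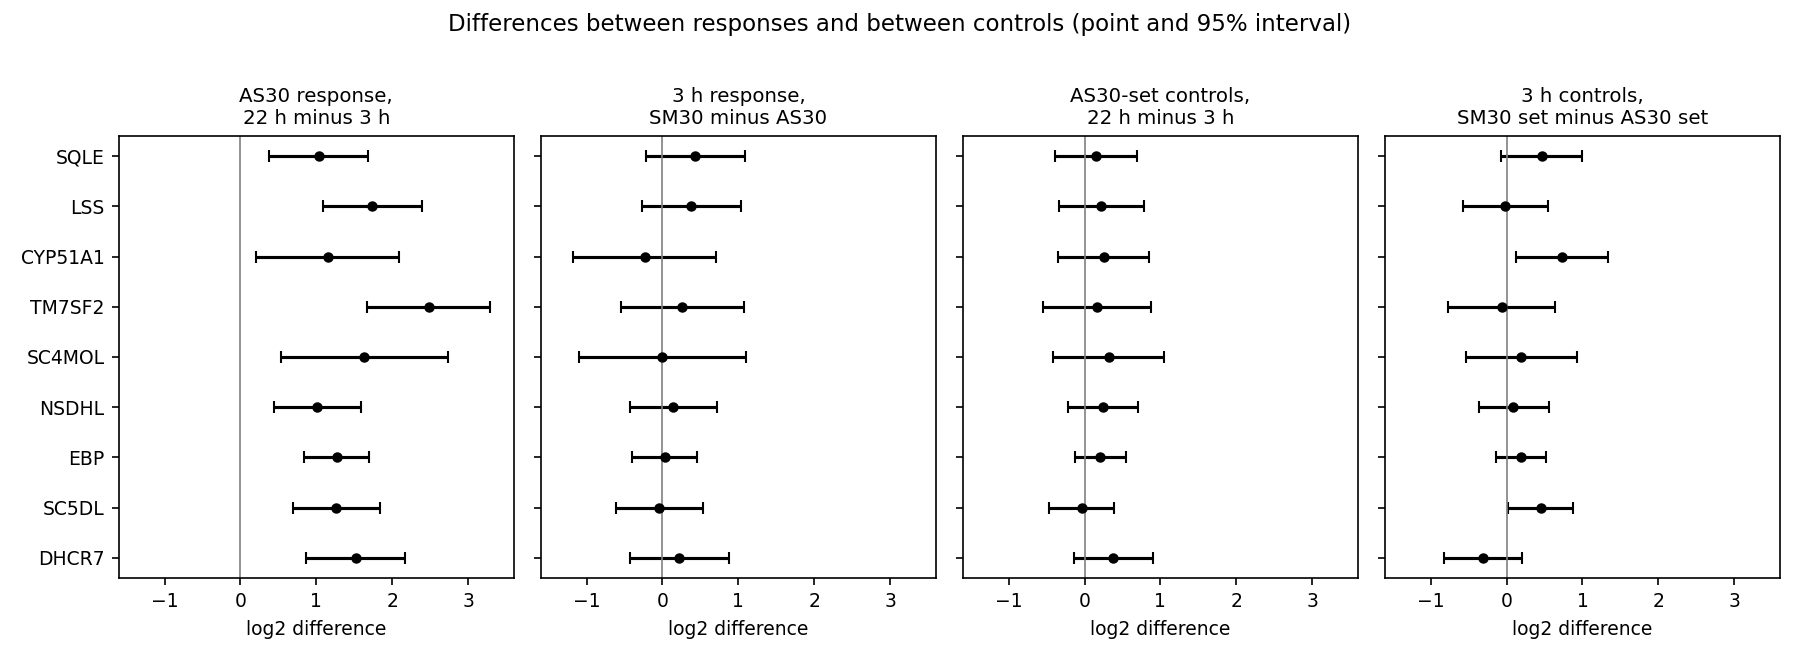
Log2 differences (horizontal axis) for the 9 enzymes between AS30 responses at 22 h and 3 h, between SM30 and AS30 responses at 3 h, and between control groups, with points for the estimate and whiskers for the 95% interval. The intervals of the response difference between 22 h and 3 h lie above 0 for all 9 enzymes. This difference contains the response the enzymes were chosen on. Intervals between controls at 22 h and 3 h include 0 for all 9. No interval is adjusted over probes, and no difference shown was called after adjustment.

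The other enzymes and partners that work after squalene included some that were called higher with the 9 and others that were not. Of 9 measured, 4 were called higher at 22 h after AS30 (median log2 ratio 0.44). HSD17B7, the ketoreductase of the demethylation complex, gave 2.58, 0.82 and 1.97 (mean 1.79). HSD17B7 missed the threshold under 8 of 20 alternatives, among them slide as a fixed block (log2 ratio 1.49, limma adjusted p = 0.295) and the fits without AS30 pair A (1.39) or pair C (1.7) at 22 h. Also called were C14orf1 (mean 1.61), the scaffold that tethers the demethylation enzymes and is now named ERG28, and the cytochrome CYB5B (mean 1.04). LBR, a nuclear envelope protein with the same reductase activity as TM7SF2, had the lowest value of the list at 22 h (-0.19), was not called there, and was called lower at 3 h after SM30 (-0.43, SE 0.11). HSD17B7 was also the highest of the list at 3 h after AS30 (0.45, not called), and PGRMC1 was the lowest after SM30 (-0.78, not called, with ratios of 0.16, -2.27 and -0.24). TM7SF2 and LBR, which catalyse the same step, did not overlap in their ratios at 22 h: LBR gave -0.17, -0.03 and -0.38 where TM7SF2 gave 2.67, 1.40 and 2.79. The difference between these genes was not tested.

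In the mevalonate pathway, which makes squalene, 7 of 10 measured enzymes were called higher at 22 h and 0 lower, with a median log2 ratio of 1.47. MVD, the decarboxylase, was the highest (2.49, SE 0.33). HMGCS1, which makes HMG-CoA, had 1.64 (SE 0.28) with ratios of 2.31, 0.64 and 1.96. It missed the threshold under 6 of 20 alternatives, among them slide as a fixed block (1.76) and without AS30 pair A (1.3) or pair C (1.48) at 22 h. PMVK was level (-0.04). At 3 h none of the 10 was called after either particle, though IDI1 had a mean of 1.74 after SM30 that rests on pair C (ratios of 0.94, 0.91 and 3.38).

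Among 13 genes of SREBP control and sterol uptake, 3 were called higher at 22 h and the median was 0.64. INSIG1, which retains SREBP in the endoplasmic reticulum and is itself an SREBP target, was the highest, at 2.88, 1.16 and 2.35 (mean 2.13). INSIG1 missed the threshold under 3 of 20 alternatives, namely slide as a fixed block (1.96) and the fits without AS30 pair A (1.75) or pair C (2.02) at 22 h. Also called were STARD4 (1.24), a cytosolic sterol carrier, and NPC2 (0.87), which moves cholesterol out of lysosomes. SREBF2, which encodes SREBP2, gave 1.1, 0.14 and 0.68 (mean 0.64, not called), and SREBF1 gave -0.25, -0.24 and -0.15 (mean -0.21, not called). The ubiquitin ligase MARCH6 was the lowest (-0.34, not called). INSIG1 was also called higher at 3 h after SM30, when 0 of the 9 enzymes were, with ratios of 1.49, 1.46 and 1.34.

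Of 6 genes of the LXR, efflux and esterification list, 0 were called higher at 22 h and 1, ABCG1, lower. This sterol exporter gave -0.83, -0.87 and -1.2 at 22 h (mean -0.96, SE 0.19), and at 3 h after AS30 it was called higher, with 0.75, 1.12 and 1.84. NR1H3, which encodes LXR alpha, was the highest of the list at 22 h (0.31, not called). Of 8 genes of fatty acid synthesis, 4 were called higher at 22 h and 8 were above 0, with a median of 0.79. ACSS2, which makes acetyl-CoA from acetate, had the highest mean of all the lists (2.93, SE 0.38, ratios of 4, 1.45 and 3.33). A second ACSS2 probe had a mean of 1.77 (ratios of 2.42, 1 and 1.89), below that of MVD (2.49), so this rank depends on the probe. ACACA, the carboxylase, had the lowest mean of its list (0.30, not called).

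**Figure D4:**
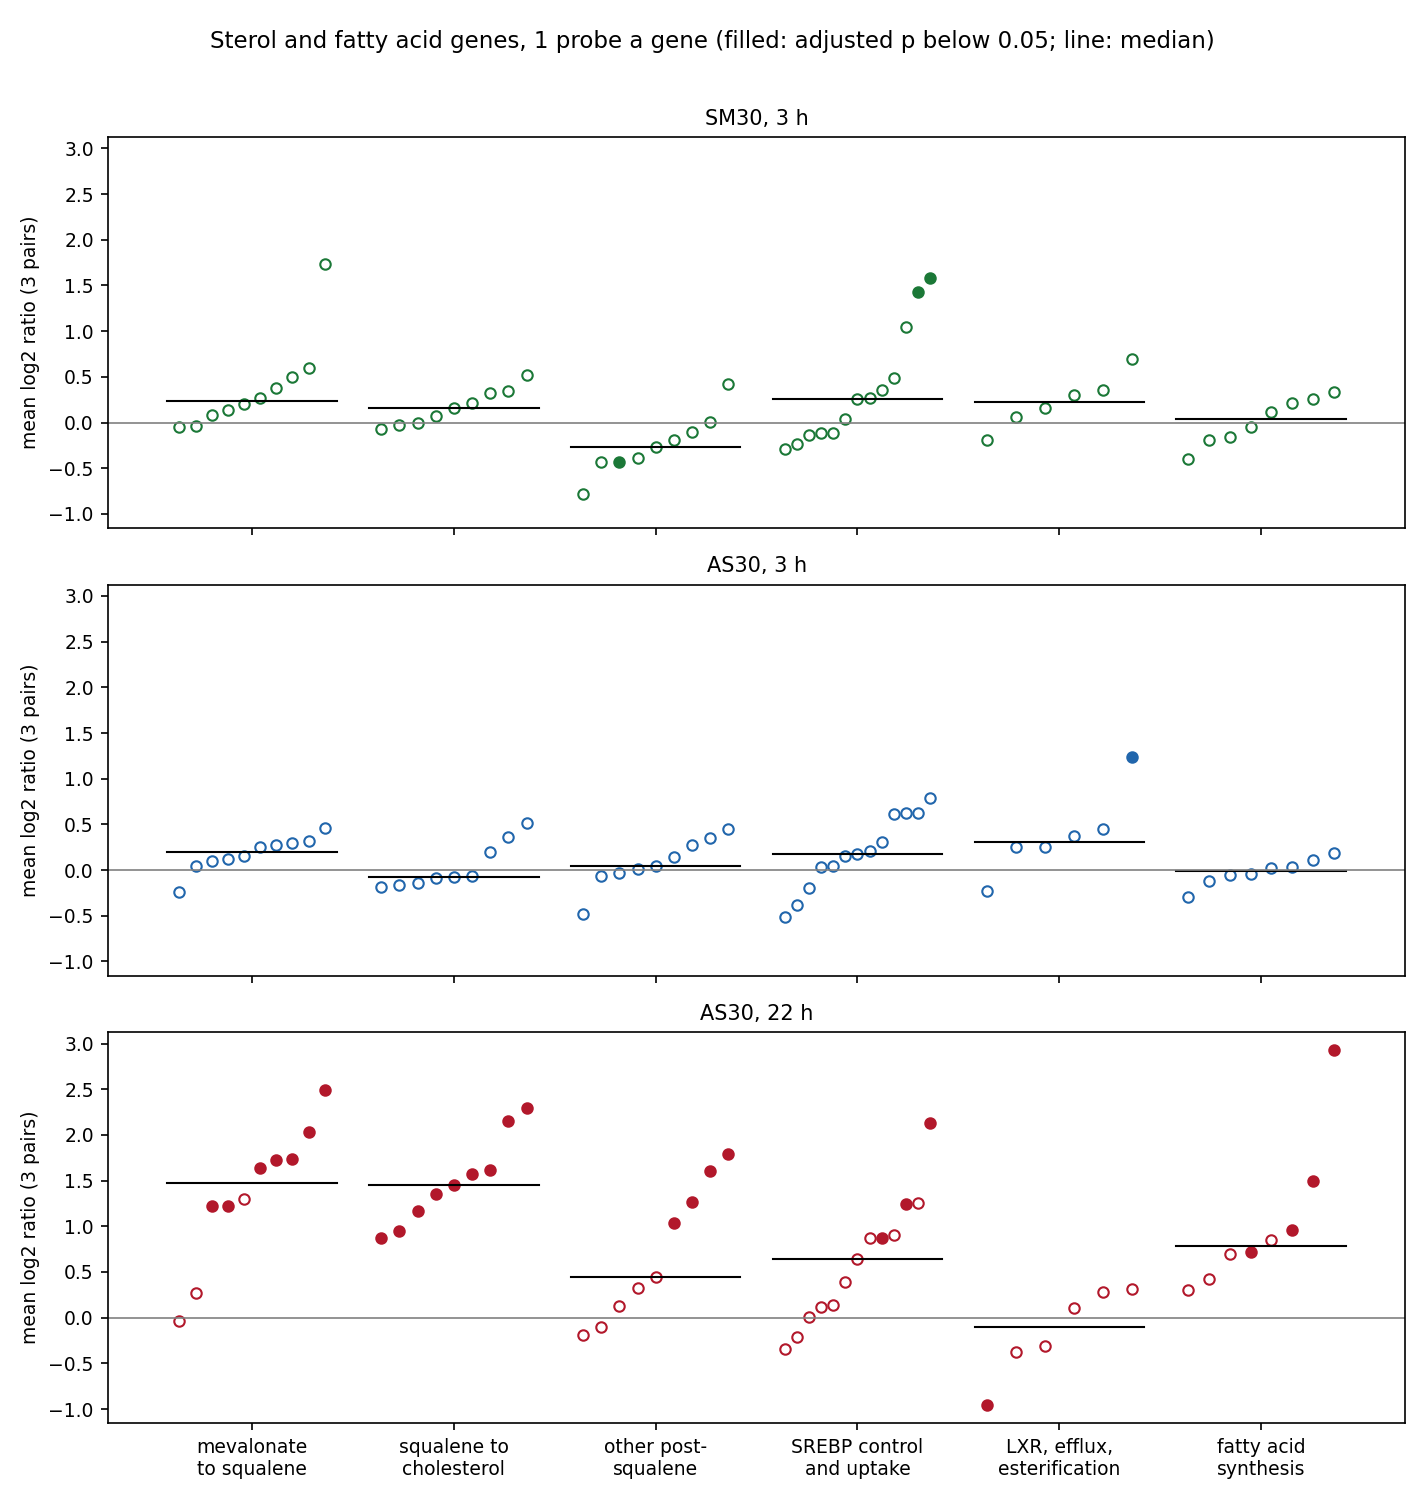
Mean log2 ratio over 3 pairs (vertical axis) for each measured gene of 6 lists, 1 probe a gene, in a panel for each treatment, with filled points for genes called at an adjusted p below 0.05 and a line at the median of the list. At 22 h after AS30 the medians are 1.47 for the mevalonate enzymes and 1.45 for the 9 enzymes from squalene to cholesterol, against -0.10 for the LXR, efflux and esterification genes.

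Over the 9 pairs of treated and control arrays, each enzyme followed the mean of the other 8 with a Pearson correlation of 0.864 (CYP51A1) to 0.986 (NSDHL). These correlations are a description over 9 points that share their control arrays within a pair, and they are carried by the 3 high pairs at 22 h. Among 17184 other genes measured in all pairs, the 8 most like the mean profile of the 9 enzymes included ACAT2 (0.991), ACSS2 (0.982), MGC23284 (0.979), MVK (0.977), SAT2 (0.976), RPGRIP1 (0.974) and AF086124 (0.972). ACAT2 and MVK belong to the mevalonate list and ACSS2 to the fatty acid list. RPGRIP1, known from photoreceptors, gave 2.86, 0.88 and 2.47 at 22 h and stayed between -0.16 and 0.19 in the 6 pairs at 3 h, and MGC23284 gave 3.62, 1.28 and 2.95 at 22 h.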

How the data were processed

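Gene expression was measured on 18 one-colour Agilent arrays. The authors deposited scanner files whose spot intensities are linear (Agilent Feature Extraction 10.5.1.1), and a table of quantile-normalized intensities, in which 0 columns were left unmapped. From the processed signal, control spots were dropped, log2 values were quantile-normalized, spots not positive and significant or marked as outliers were set to missing, replicate spots were averaged, and probes with over 33% missing values were removed. Limma 3.58.1 (R 4.3.3) was fitted to the 9 same-letter log2 ratios as 3 classes (6 residual degrees of freedom), and to the 18 arrays as 6 groups for comparisons of controls, with Benjamini-Hochberg adjustment over all probes and 0.05 as the threshold. The functions were tested on simulated data. A gene is represented by its brightest probe. The number of arrays limits the precision. In the ratio fit, p-values rest on the spread between lettered replicates, pooled over the log2 ratios of all 3 classes. A p-value for a treatment therefore also depends on the spread in the other classes. In comparisons of controls, the spread is pooled over the 6 groups. The 9 enzymes and all gene lists were chosen with earlier results of these data known. Named genes are the 9 enzymes, the extremes of each list, regulators and enzymes named in advance and the 8 genes most like the enzymes; some of these genes are not reported here. Other genes were named after their values were seen. Alternatives changed the scaling, background correction, filters, value table, pairing, slide and replicates.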

Additional observations from a re-analysis of the deposited data

Results flagged for a closer look

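Opposite signs in every pair of 2 treatments drew attention to 3 genes. LSS, NSDHL and EBP had 3 log2 ratios above 0 at 22 h after AS30 and 3 below 0 at 3 h after AS30, although 1 NSDHL ratio at 3 h rounded to 0. The tested difference (22 h minus 3 h) was 1.74 for LSS (SE 0.28, limma adjusted p = 0.0885), 1.01 for NSDHL (SE 0.25, adjusted p = 0.143) and 1.27 for EBP (SE 0.19, adjusted p = 0.0786), so none passed the adjusted threshold. For LSS the signs also opposed between particles at 3 h, with a difference (SM30 minus AS30) of 0.38 (SE 0.28, adjusted p = 0.558), and another LSS probe well above background on all 18 arrays (A_24_P110799) had means above 0 after both particles (0.37 and 0.09). Groups of 3 arrays are too small for a test of single outlying arrays, so none was run.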

How the results depend on the processing

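The median log2 ratio of the 9 enzymes at 22 h after AS30 stayed between 1.21 and 1.76 in 20 alternatives, and all 9 kept their sign, with the call lost in 11 of the 20 for CYP51A1, 9 for SQLE and 9 for NSDHL. The number called there was 3 with slide as a fixed block (325 of 28223 probes called) and ranged from 0 to 9 when a pair was left out. The differences between AS30 responses at 22 h and 3 h called 1 enzyme with normexp background correction, 2 without a replicate block (18 arrays unpaired), 5 with slide as a random block and 9 with ratios to the mean of the 3 controls, which drops the spread of the controls (7 of 28086, and 69, 319 and 5962 of 28176 probes called), and 0 to 7 when a pair was left out. The F-test over the 3 classes called 2 with normexp, 2 with the well above background flag, 2 with probes measured on all 18 arrays and 8 with ratios to the mean of the 3 controls (147, 80, 67 and 9655 probes called), and 0 to 4 when a pair was left out. Between SM30 and AS30 controls 1 was called with 75th-percentile scaling and 1 with slide as a random block (7580 and 9700 of 28620 probes called). It was 0 to 1 when an array was left out. All counts here with a pair or an array left out stand without the number of all probes called in those fits, so nothing is read from them. The median at 3 h after AS30 moved from -0.08 to 0.04 with 75th-percentile scaling. The causes were not tested. Same-letter treated and control arrays deviated together with correlations from -0.091 to 0.476, above 0.1 in 4 of 9 pairs, so the letters were not shown to pair the samples; the letter as a replicate block changed neither comparison of controls (0 enzymes called in both).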
